A study of Homo sapiens with 18 samples.

Results

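CYBB, CYSLTR1 and VSIG4 are 3 myeloid genes of chromosome X, taken here from 19974 protein-coding genes of chromosomes 1 to 22 and X. They were chosen by the share of the gene body inside H3K9me3 domains, which was higher in knockout than in control cells of this very dataset. Their H3K9me3 and H3K27me3 values are therefore given as a description, without a test. The cells were U937, a long-established human leukaemia line with monocytic features. Chromatin immunoprecipitation and sequencing (ChIP-seq) of H3K9me3 and of H3K27me3 was carried out in 3 genotypes. DKO cells were knocked out for SUV39H1 and SUV39H2, SKO cells for SUV39H1, and sgControl cells carried a control guide. Each genotype and mark had 2 libraries. SETDB1 was mapped by 2 libraries of wild-type (WT) U937 cells, without any knockout counterpart. The labels state neither whether each knockout line is 1 clone or a mixed population, nor whether replicates were grown separately, so the spread between libraries may be technical. No expression was measured in these files, so neither the knockouts nor the level of any transcript could be checked.

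SUV39H1, SUV39H2 and SETDB1 are enzymes that methylate lysine 9 of histone H3, and H3K9me3 marks compact, transcriptionally quiet heterochromatin. H3K27me3 is set by the Polycomb complex PRC2 and marks a separate kind of silent chromatin. CYBB encodes gp91phox, the haem-binding catalytic subunit of the phagocyte NADPH oxidase, which makes the superoxide of the respiratory burst; its loss causes X-linked chronic granulomatous disease. CYSLTR1 encodes a G protein-coupled receptor for cysteinyl leukotrienes and is the target of montelukast. VSIG4 encodes a complement receptor of tissue macrophages that binds C3b and iC3b.

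On the genome build GRCh38.p14 (RefSeq), CYBB (gene ID 1536) lies on the plus strand at chrX:37780059-37813461. CYSLTR1 (gene ID 10800) lies on the minus strand at chrX:78271468-78327611, and VSIG4 (gene ID 11326) on the minus strand at chrX:66021738-66040080. Gene bodies span 33.4 kb for CYBB, 56.1 kb for CYSLTR1 and 18.3 kb for VSIG4. The 250 bases before each start site are shown because the H3K9me3 domains described next covered them in most knockout libraries. They are given 5′ to 3′ in the direction of transcription, from RefSeq. Capitals mark CCAAT and GAGGAA, each searched on both strands, so that ATTGG and TTCCTC are their reverse complements.
CYBB promoter (chrX:37779809-37780058, plus strand): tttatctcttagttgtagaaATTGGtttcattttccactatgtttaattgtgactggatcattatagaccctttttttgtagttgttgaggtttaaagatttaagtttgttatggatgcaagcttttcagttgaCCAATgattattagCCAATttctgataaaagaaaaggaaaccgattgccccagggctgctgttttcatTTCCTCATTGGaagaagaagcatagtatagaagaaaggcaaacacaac
CYSLTR1 promoter (chrX:78327612-78327861, minus strand): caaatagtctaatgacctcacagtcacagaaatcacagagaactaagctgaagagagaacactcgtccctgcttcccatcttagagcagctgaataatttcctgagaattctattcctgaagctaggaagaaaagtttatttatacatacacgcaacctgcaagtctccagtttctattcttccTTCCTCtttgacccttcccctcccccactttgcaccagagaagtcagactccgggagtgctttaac
VSIG4 promoter (chrX:66040081-66040330, minus strand): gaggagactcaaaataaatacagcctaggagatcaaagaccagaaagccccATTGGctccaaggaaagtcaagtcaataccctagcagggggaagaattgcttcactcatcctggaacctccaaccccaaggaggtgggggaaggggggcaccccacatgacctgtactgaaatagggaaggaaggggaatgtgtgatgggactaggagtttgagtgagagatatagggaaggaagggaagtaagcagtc

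All 3 windows were poor in CpG dinucleotides. CYBB held 1 CpG, CYSLTR1 held 3 and VSIG4 held 0, against a median of 17 over 15812 promoters of the same length. Windows with no more CpGs than these made up 8.15% of promoters for CYBB, 16.9% for CYSLTR1 and 3.12% for VSIG4. The GC content was 34% for CYBB, 44% for CYSLTR1 and 50.4% for VSIG4, against a median of 62.4%. CCAAT, the letters bound by NF-Y, occurred 4 times in the CYBB window, once in that of VSIG4 and not in that of CYSLTR1, and 34.4% of all promoters held at least 1 copy. GAGGAA, a core that ETS factors such as PU.1 can bind, occurred 1 time each in CYBB and CYSLTR1 and was held by 23.5% of promoters. In the CYBB window it directly adjoined a CCAAT on the same strand. GAAA repeated after a spacer of 2 bases, the core of an interferon-stimulated response element, occurred 2 times in CYBB, counting both strands, and was held by 2.72% of promoters. TATAAA occurred 1 time in CYSLTR1, on the strand opposite to transcription and 111 to 106 bases before the start site. It was held by 9.25% of promoters. These are matches of letters, and binding of these factors was not measured.

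H3K9me3 domains lay over the gene bodies in knockout cells and were called over none of them in sgControl cells. CYBB was 100% inside domains in both DKO libraries and both SKO libraries, against 0% in both sgControl libraries. CYSLTR1 was 100% inside in both DKO libraries and 82.6% and 89.3% in the SKO libraries, against 0% in both sgControl libraries. VSIG4 was 100% and 78.2% inside in the DKO libraries and 92% in both SKO libraries, against 0% in both sgControl libraries. For each gene the lowest knockout library therefore stood far above both control libraries, and neither knockout overlapped with sgControl. DKO and SKO coincided at CYBB and overlapped at VSIG4. As means, CYSLTR1 had 86.0% ± 4.70 in SKO and VSIG4 had 89.1% ± 15.4 in DKO (SD, n = 2). A domain is a stretch that the authors' epic2 run called as enriched in 1 library, so 0% says that no domain was called there and not that no reads fell there.

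**Figure D1:**
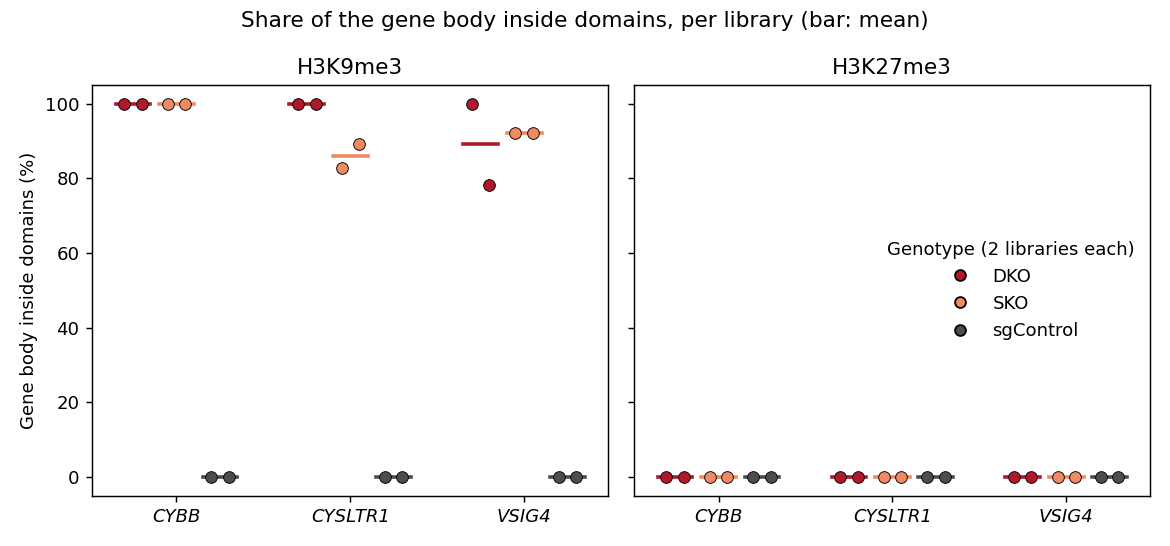
Share of each gene body inside H3K9me3 domains (left) and H3K27me3 domains (right), in percent, for 2 DKO, 2 SKO and 2 sgControl libraries (points) with their means (bars). H3K9me3 lies between 78.2% and 100% in every knockout library and at 0% in sgControl, and H3K27me3 is at 0% in every library.

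A gene was called gained or lost where every library of 1 genotype stood at least 25 percentage points above or below every library of the other. By this rule 3 of 3 genes gained H3K9me3 in DKO against sgControl, where 3.84% of all genes gained and 4.23% lost the mark. In SKO against sgControl 3 of 3 gained it, where 4.11% of all genes gained and 4.50% lost it. Since these contrasts chose the genes, nothing is read from those counts, and both comparisons share the same sgControl libraries. Between DKO and SKO 0 of 3 genes were called, against 1.46% of all genes gained and 1.34% lost. CYSLTR1 came nearest, with both DKO libraries above both SKO libraries and 10.7 percentage points between the nearest pair. With 2 libraries against 2, an exact two-sided permutation test cannot go below p = 0.333.

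The start site set CYSLTR1 apart from the other genes. That of CYBB lay inside a domain in all 4 knockout libraries, while the nearest domain was 49.7 and 48.9 kb away in sgControl. VSIG4 likewise had its start site inside a domain in all 4 knockout libraries, with the nearest domain 118 and 225 kb away in sgControl. For CYSLTR1 the start site was inside a domain in both DKO libraries, but 7.61 and 1.99 kb outside the nearest domain in SKO and 300 and 45.2 kb outside in sgControl. In both SKO libraries the uncovered part of CYSLTR1 thus included its 5′ end and the promoter window printed above.

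A single H3K9me3 domain covered CYBB in each knockout library. It spanned 81.6 and 82.4 kb in DKO and 66.4 and 89.6 kb in SKO. Measured from the start site, it ran from -36.9 to 44.7 kb and from -32.1 to 50.3 kb in DKO, and from -31.3 to 35.1 kb and from -45.7 to 43.9 kb in SKO. It reached past both ends of the gene every time. It held 3227 and 2559 reads in DKO and 2484 and 2887 reads in SKO, or 39.5 and 31.1 reads per kb in DKO and 37.4 and 32.2 in SKO. Divided by the median density of chromosome X domains in the same library, these were 2.03 and 1.93 in DKO and 1.68 and 1.55 in SKO, so the domain was denser than a typical X domain in every library. By the authors' score it ranked in the top 2.56% and 5.12% of domains in DKO and the top 5.14% and 7.57% in SKO. No other domain within 200 kb of CYBB came above the top 52.9% and 76.4% in DKO or 39.8% and 36.1% in SKO.

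The deposited lists showed no such contrast in the flanks of CYBB. Within 200 kb upstream, H3K9me3 domains covered 23.8% ± 0.283 in DKO and 36.4% ± 7.92 in SKO, against 19.4% ± 4.24 in sgControl (SD, n = 2). Downstream they covered 20.5% ± 7.35 in DKO and 38.5% ± 5.66 in SKO, against 31.6% ± 18.1 in sgControl. Part of the upstream share in the knockouts is the domain over CYBB itself. The sgControl flanks thus already held domains, at 44.4% and 18.8% downstream in its libraries, while the gene between them held none. These control domains ranked no higher than the top 45.2% and 55.4% of their libraries by score. With all lists trimmed by score to the same covered length, the 200 kb on either side of CYBB had 0% in sgControl, against 17.2% upstream and 20.5% downstream in DKO and 36.4% and 38.5% in SKO. With 500 kb flanks the upstream shares were 16.6% in DKO and 21.2% in SKO, against 35.6% in sgControl, so the direction of the flank difference depended on the window and on the domain list. XK, which encodes the membrane protein of the Kx blood group and lies 47.9 kb upstream, had 0% in both DKO libraries and 29.3% and 41.4% in SKO, against 32.8% and 46.6% in sgControl. It was called lost in DKO, the opposite direction to CYBB. The control domain there ranked only in the top 69.6% and 58.8% of its libraries by score. With the trimmed lists no control domain was left upstream, so the loss of XK held for the untrimmed lists only. DYNLT3, a dynein light chain gene 25.4 kb downstream, had 0% in both DKO libraries and 13.4% and 59.2% in SKO, against 0% in both sgControl libraries, and was not called. SYTL5, which encodes a Rab27 effector, had 18.3% and 35.0% in DKO and 45.4% and 41.0% in SKO, against 34.3% and 30.01% in sgControl. DKO overlapped with sgControl there, SKO lay above both, and neither knockout was called. H2AP and H2AL3 had 0% in every library.

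**Figure D2:**
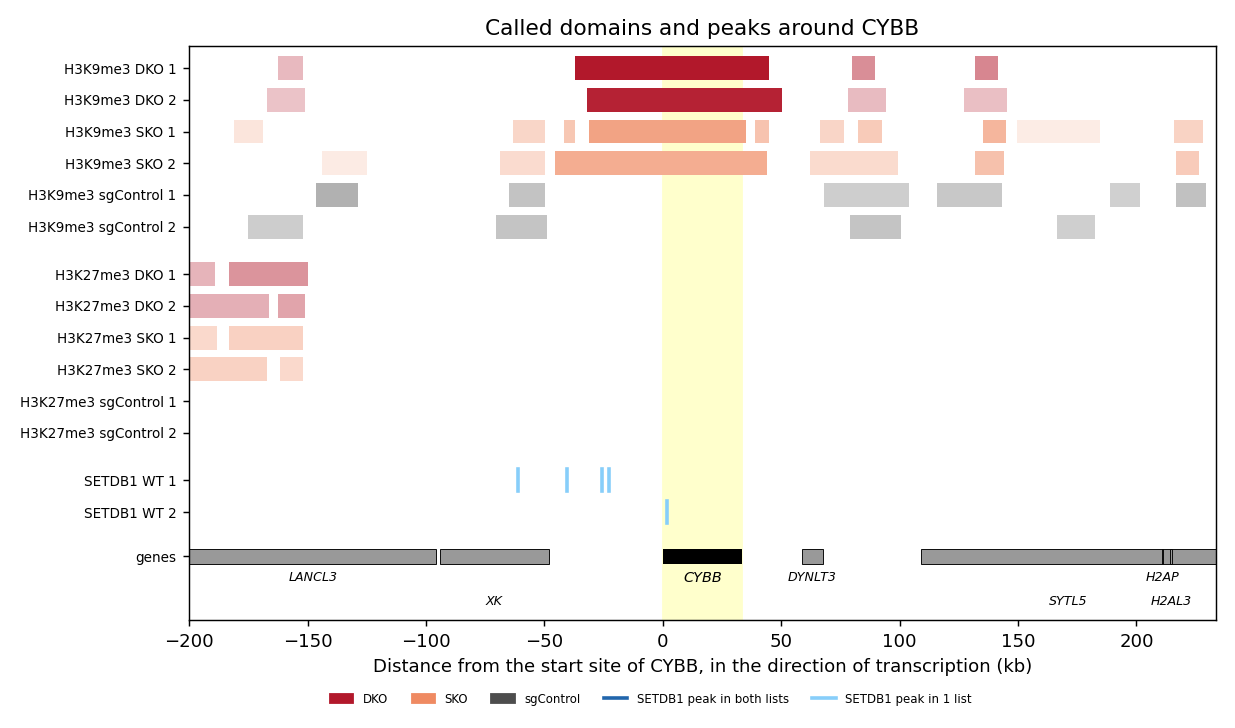
Called domains around CYBB by distance from its start site in kb, with DKO, SKO and sgControl libraries from top to bottom for each mark, then SETDB1 peaks of 2 WT libraries and genes. Darker bars have more reads per kb relative to the chromosome X median of their library; the dark H3K9me3 bar over the gene spans 66.4 to 89.6 kb in the knockout libraries and is missing in sgControl.

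CYSLTR1 was also covered by 1 domain per knockout library, but with edges that moved. In DKO it ran from -2.79 to 65.2 kb and from -14.8 to 58.0 kb relative to the start site, spanning 68.0 and 72.8 kb. In SKO it began inside the gene, at 7.61 and 6.01 kb, and ended at 54.0 and 122.8 kb, spanning 46.4 and 116.8 kb. Both DKO edges thus lay outside the gene, whereas the domain of the first SKO library began and ended inside it. Read density relative to the X median was 1.66 and 1.57 in DKO and 1.63 and 1.22 in SKO. The domain ranked in the top 4.70% and 4.66% by score in DKO and the top 9.88% and 8.92% in SKO. The best flanking domains ranked in the top 22.1% and 27.7% in DKO and 23.6% and 27.1% in SKO.

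Around CYSLTR1 the flanks held more of both marks in the knockouts. Upstream, H3K9me3 covered 53.8% ± 13.3 in DKO and 39.1% ± 1.27 in SKO, against 7% ± 9.90 in sgControl (SD, n = 2). Downstream it covered 42.7% ± 7.64 in DKO and 40.5% ± 4.05 in SKO, against 0% in both sgControl libraries. That downstream share was 64.1% in DKO and 61.7% in SKO with 100 kb and 19.0% and 18.5% with 500 kb, against 0% in sgControl with either. H3K27me3 covered 60.2% ± 3.96 of the upstream flank in DKO and 49.2% ± 0.283 in SKO, against 18.4% ± 8.49 in sgControl. Its downstream share was 48.0% ± 1.70 in DKO and 41.8% ± 3.68 in SKO, against 11.4% ± 1.98 in sgControl. Once the H3K27me3 lists were trimmed to the same covered length, the upstream share was 33.8% in DKO and 19.5% in SKO, against 18.4% in sgControl, so the difference in SKO was nearly lost. The gene body lay inside a wider gap between these H3K27me3 domains. The nearest lay 33.1 and 22.7 kb from the gene in DKO and 43.5 and 33.1 kb in SKO, against 69.2 and 97.1 kb in sgControl. TAF9B, a TFIID-type cofactor subunit gene 132 kb downstream, and PGK1, the glycolytic enzyme phosphoglycerate kinase 142 kb downstream, had 0% of either mark in every library.

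**Figure D3:**
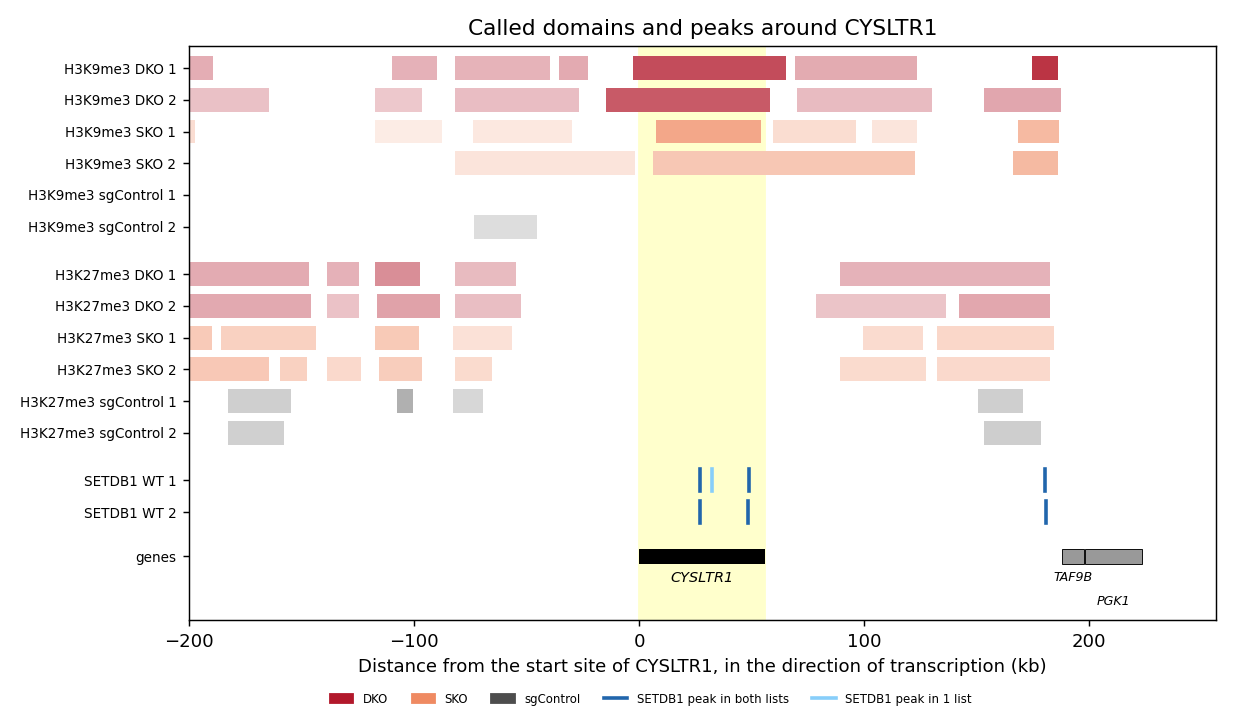
Called domains around CYSLTR1 by distance from its start site in kb, laid out as for CYBB. In DKO the H3K9me3 domain spans the start site, in SKO it begins 7.61 and 6.01 kb past it, and H3K27me3 domains stand on both sides without touching the gene.

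VSIG4 lay in a wide neighbourhood of H3K9me3 domains. In DKO the domains touching the gene spanned 96.8 kb in the first library and 110.4 and 17.6 kb in the second, and in SKO a separate domain of 24.0 and 22.4 kb sat on the gene. The upstream 200 kb were covered at 78.8% in both DKO libraries and at 72.4% and 81.6% in SKO, against 0% in both sgControl libraries. The downstream 200 kb were covered at 96.0% and 98.0% in DKO and at 91.1% and 92.3% in SKO, against 4% and 0% in sgControl. Almost the whole neighbourhood was therefore without called domains in control cells and inside them in both knockouts. The domain on VSIG4 had a relative density of 1.31 in the first DKO library and of 1.21 over the pair of domains touching the gene in the second DKO library, and of 1.32 and 1.39 in SKO. The second DKO library left a gap between 2.48 and 6.48 kb past the start site, and its share of the gene was 78.2%. With only the upper 50% of each list by score, VSIG4 had 100% and 13.5% in DKO, against 0% in both sgControl libraries. The second DKO library then fell short of the 25 points and the DKO call was lost, leaving 2 of 3 genes called. Under the same setting the upstream flank had 44.4% in SKO, against 0% in sgControl.

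The highest-ranked H3K9me3 domain around VSIG4 lay 3′ of the gene. In DKO a domain began 28.1 kb past the start site and spanned 132.8 kb in 1 library and 217.6 kb in the other. Its rank by score was 443 and 408, the top 1.70% and 1.91% of all domains of those libraries. In SKO the corresponding domain spanned 198.4 and 216.8 kb and ranked 953 and 467, the top 3.94% and 2.19%. The domain touching VSIG4 ranked lower, in the top 8.39% and 9.01% in DKO and 22.8% and 25.8% in SKO. This is the reverse of CYBB and CYSLTR1, where the domain on the gene outranked those within 200 kb in every knockout library. HEPH, which encodes the copper-dependent iron oxidase hephaestin and lies 123 kb upstream, had H3K9me3 over 82.2% and 65.6% of its body in DKO and 76.9% and 83.4% in SKO, against 0% and 3.83% in sgControl, and was called gained in both.

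**Figure D4:**
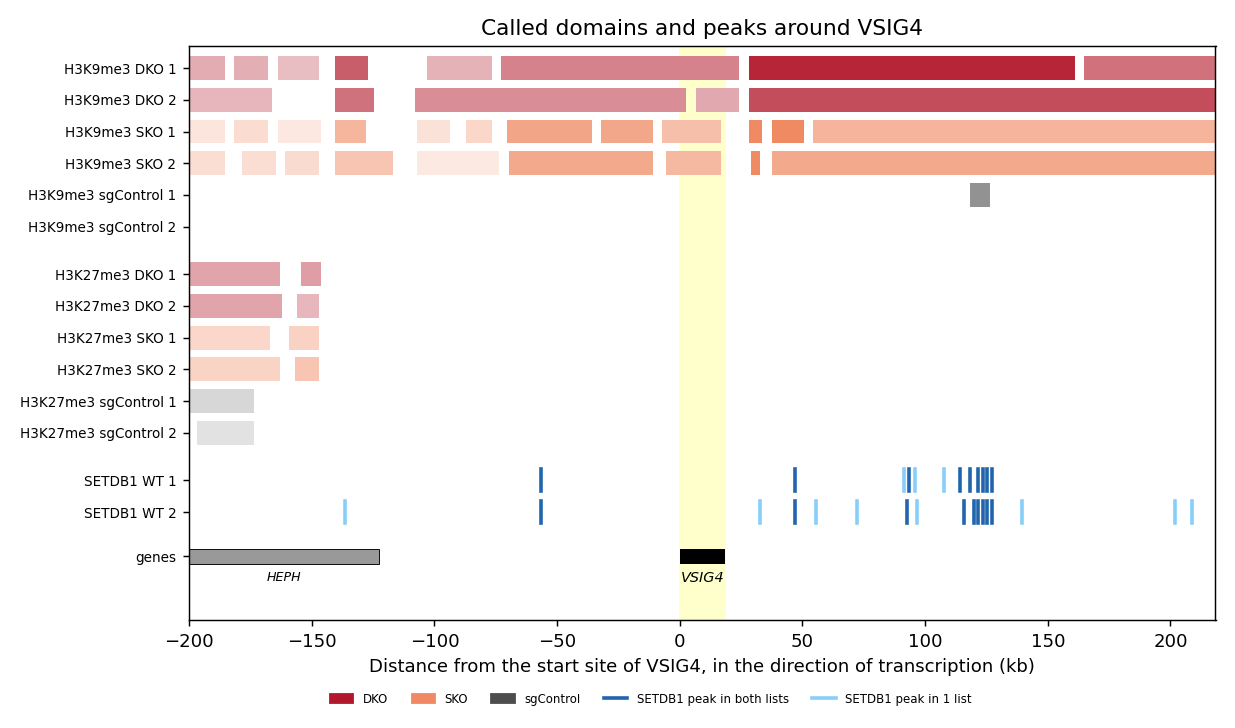
Called domains around VSIG4 by distance from its start site in kb, laid out as for CYBB. H3K9me3 domains fill most of the window in the 4 knockout libraries and only 1 short domain is called in sgControl. Part of the SETDB1 peaks of both WT libraries gather between 112.8 and 127.7 kb past the start site, and the others are scattered.

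**Figure D5:**
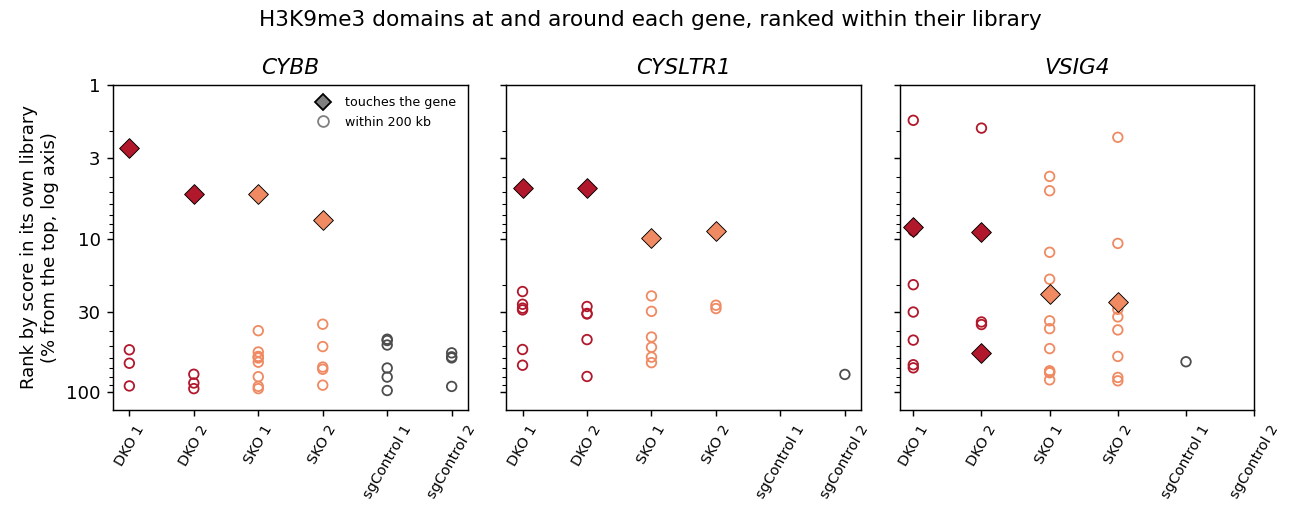
Rank by the authors' score of each H3K9me3 domain at a gene (diamonds) and within 200 kb of it (open circles), as percent from the top of its own library on a log axis, for DKO, SKO and sgControl libraries from left to right. The domains on CYBB and CYSLTR1 lie within the top 9.88% and above all their neighbours, while at VSIG4 downstream domains rank higher, up to the top 1.70%.

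H3K27me3 was called over none of the 3 gene bodies, with 0% in all 6 libraries. Thus 0 of 3 genes were called for this mark in DKO against sgControl, where 3.82% of all genes gained and 3% lost it, and 0 of 3 in SKO against sgControl, where 3.37% gained and 3.15% lost it. Between DKO and SKO 0 of 3 were called, against 0.726% gained and 0.365% lost. The flanks behaved otherwise. Upstream of CYBB, H3K27me3 covered 22.4% in both DKO libraries and 21.4% ± 0.283 in SKO, against 0% in both sgControl libraries (SD, n = 2). That stretch includes LANCL3, a lanthionine synthetase-like gene, which had 43.6% and 46.1% of its body in H3K27me3 domains in DKO and 41.1% and 40.4% in SKO, against 0% in both sgControl libraries, and was called gained in both. The flank contrast depended on the window: with 100 kb it was 0% in all 3 genotypes, and with 500 kb it was 55.9% in DKO and 55.4% in SKO, against 41.4% in sgControl. Upstream of VSIG4 the share was 22.8% ± 0.566 in DKO and in SKO, against 12.4% ± 1.16 in sgControl, and with 100 kb it was 0% in all 3 genotypes. With 500 kb it was 65.3% in DKO and 60.7% in SKO, against 14.2% in sgControl. The nearest H3K27me3 domain stayed 146 to 147 kb from VSIG4 in the knockouts and 174 kb in sgControl. Of the 767 genes gaining H3K9me3 in DKO, 582 (75.9%) had no H3K27me3 domain in any library, close to the 75.4% of all genes. In SKO it was 700 of 821 genes (85.3%).

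The covered length of chromosome X differed between the genotypes as well. H3K9me3 domains covered 21.5 ± 1.24 Mb of it in DKO and 16.8 ± 0.443 Mb in SKO, against 15.6 ± 0.391 Mb in sgControl (SD, n = 2). H3K27me3 domains covered 75.7 ± 1.88 Mb in DKO and 67.6 ± 0.753 Mb in SKO, against 35.8 ± 0.0453 Mb in sgControl. Of 848 genes on X, 54 (6.37%) gained H3K9me3 in DKO and 38 (4.48%) in SKO, against 3.73% and 4.09% of autosomal genes. For H3K27me3, 99 X genes (11.7%) gained in DKO and 88 (10.4%) in SKO, against 3.47% and 3.06% of autosomal genes. The part of these chromosome-wide shifts in the values of the 3 genes was not tested. Over the whole genome H3K9me3 domains covered 795 and 788 Mb in DKO and 754 and 756 Mb in SKO, against 1044 and 1013 Mb in sgControl. The genome-wide length was thus lower in both knockouts, while that of chromosome X was higher. H3K27me3 domains covered 1225 and 1198 Mb in DKO and 1210 and 1200 Mb in SKO, against 1058 and 1062 Mb in sgControl. H3K9me3 libraries held 16.5 to 23.6 M (mega) reads in domains, and H3K27me3 libraries held 47.9 to 70.7 M. The deposited read counts are not scaled by depth or by the Drosophila spike-in. When all H3K9me3 lists were trimmed by score to the same covered length, 3 of 3 genes were called gained in both knockouts. Trimming shortened the sgControl lists most, and these already had 0% at the 3 genes. It could therefore scarcely undo the calls, and nothing is read from their staying.

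Among genes that went from 0% in both sgControl libraries to 100% in both knockout libraries, long genes were few. There were 100 such genes in DKO, with a median length of 3.87 kb, and 84 in SKO, with a median of 4.05 kb. The demand for full cover in both libraries itself favours short genes. All genes gaining H3K9me3 had a median length of 34.4 kb in DKO and 36.0 kb in SKO. Over 30 kb there were 5 in DKO, namely SCUBE3, ZNF76, PPARD, CYBB and CYSLTR1. In SKO there were 6, namely RSPO4, SCUBE3, ZNF76, PPARD, BRPF3 and CYBB. The genes nearest in pattern were found by the mean absolute difference in gene body share over the 12 histone mark libraries. For CYBB, 37 genes were tied at 0 percentage points, of which the first by symbol are BEX1, CLEC4M, COX6C, CRYGB and CXCL1. For CYSLTR1 they were SIRPB2 at 0.228 points, KBTBD7 at 1.07, IL1B at 1.41, PDRG1 at 1.42 and CPNE1 at 1.49. For VSIG4 they were YTHDF3 at 1.29 points, MAPK13 at 1.66, RHOA at 1.81, UQCRFS1 at 1.82 and FBXL12 at 1.86. Within 5 points of CYBB lay 94 genes, 7 of them on X, and the counts were 93 and 6 for CYSLTR1 and 89 and 6 for VSIG4.

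SETDB1 peaks of WT cells were found near all 3 genes, in different places. The authors' lists hold 23427 and 24366 peaks with −log10 p of at least 5.00, and medians of 6.98 and 6.66. CYBB had 4 peaks in the first WT library, all between 61.2 and 22.5 kb upstream with −log10 p of 5.59 to 8.48, and 1 in the second, 1.54 kb past the start site at 5.33. None of these was found in both libraries, so no SETDB1 peak at CYBB was replicated. CYSLTR1 had 4 and 3 peaks, of which 3 and 2 lay in the gene. Those found in both lists overlapped by at least 1 bp, and 2 of them were in the gene, at about 26.5 to 27.4 kb and 47.7 to 48.8 kb past the start site, with −log10 p of 5.33 to 6.98. The third shared peak lay about 180 kb past the start site, with −log10 p of 10.1 and 5.95. All of these CYSLTR1 peaks lay in H3K9me3 domains of both DKO and both SKO libraries.

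VSIG4 itself held no SETDB1 peak, but its surroundings held more than those of the other genes. There were 12 and 17 peaks within 200 kb, 11 and 15 of them downstream, and 9 in each list were shared. Some were scattered between 137 kb upstream and 209 kb past the start site. Others, all of them shared, gathered between 112.8 and 127.7 kb past it, where the highest had −log10 p of 21.0 and 15.2. In all 4 knockout libraries this cluster lay inside the downstream domain described above, and every one of the 12 and 17 peaks lay in H3K9me3 domains of all 4 knockout libraries. In sgControl, 4 and 5 of them touched a domain in at least 1 library. With −log10 p of at least 10, 4 and 2 of these peaks were left, against 1 and 0 around CYSLTR1 and 0 and 0 around CYBB. Over all genes, 17.9% held a SETDB1 peak in the gene body in both lists, as did 9.08% of X genes and 44.6% of the genes gaining H3K9me3 in DKO. CYSLTR1 belonged to these genes, and CYBB and VSIG4 did not. Gene length was not matched in these shares, and SETDB1 was not mapped in knockout cells.

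Of 8 genes of the phagocyte NADPH oxidase, CYBB was the only one called for H3K9me3 in DKO or in SKO, and none was lost. Among all genes 3.84% gained the mark in DKO and 4.11% in SKO, and CYBB was in the list as a chosen gene. With 0 of the 7 other genes called, near those shares, nothing is read about the partners of CYBB. The median difference from sgControl was 2.13 percentage points in DKO and 0 in SKO, against 0 over all genes in both. CYBA, which encodes the p22phox partner of gp91phox, had 0% in all 6 libraries, as did the chaperone gene CYBC1, the GTPase gene RAC2 and NCF1, whose reads cannot be told from those of its near-identical pseudogenes. NCF4, encoding p40phox, had 16.5% and 7.14% in DKO and 21.3% in both SKO libraries, against 0% in both sgControl libraries, and was not called. Of 10 other NADPH oxidase genes, 1 gained H3K9me3 in DKO and 0 in SKO, where 3.84% and 4.11% of all genes gained it. The 1 gained gene was NOX5, a calcium-regulated oxidase, with 41.6% and 62.6% in DKO and 49.3% and 0% in SKO, against 0.753% and 0% in sgControl. Unlike CYBB, NOX5 also had H3K27me3, over 61.0% and 53.4% in DKO and 63.4% and 23.3% in SKO, against 0% in both sgControl libraries.

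Among 6 leukotriene receptor genes CYSLTR1, a chosen gene, was the only one called. Of the 5 others 0 were called, where 3.84% and 4.11% of all genes gained H3K9me3 in DKO and SKO. Nothing is therefore read from this count. The closest relative of CYSLTR1, CYSLTR2 on chromosome 13, had H3K9me3 over 100% and 99.2% in DKO and 100% in both SKO libraries. In sgControl it had 100% and 81.8%. OXGR1, a receptor that also binds leukotriene E4, had 100% in every library. LTB4R, LTB4R2 and GPR17 had 0% in every library. The family thus held genes covered in all genotypes, genes covered in none and CYSLTR1, covered in the knockouts alone. Of 11 leukotriene synthesis and export genes 0 were called gained in DKO and 1 in SKO, where 3.84% and 4.11% of all genes gained the mark. The called gene was the glutathione transferase gene MGST2, with 13.5% and 11.7% in DKO and 28.8% in both SKO libraries, against 0% in both sgControl libraries. ALOX5, the 5-lipoxygenase gene that starts leukotriene synthesis, had 8.90% and 0% in DKO and 10.0% and 5.56% in SKO, against 0% in both sgControl libraries. None of these 11 genes held H3K27me3 in any library.

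Of 13 complement receptor and regulator genes, VSIG4 and CD46 were called gained in both knockouts and none was lost. Among all genes 3.84% gained the mark in DKO and 4.11% in SKO, and VSIG4 was in the list as a chosen gene. CD46, a cofactor for the inactivation of C3b on the cell's own surface, had 49.7% and 46% in DKO and 47.8% and 49.7% in SKO, against 0% in both sgControl libraries. CR2, the B cell receptor for C3d, had 25.6% and 84.0% in DKO and 88.8% in both SKO libraries, against 100% in both sgControl libraries, and was not called. ITGAM, the alpha chain of complement receptor 3, had 41.8% and 49.4% in DKO and 53.8% and 67.0% in SKO, against 61.5% and 53.9% in sgControl. SKO overlapped with sgControl there, DKO lay below both, and neither knockout was called. All 13 genes had 0% H3K27me3 in every library. Median differences of this list and of the leukotriene receptors were 0 in both knockouts, the same as over all genes.

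In 19 macrophage scavenger and Fc receptor genes 1 gained H3K9me3 and 1 lost it in each knockout. MSR1, the class A scavenger receptor, was the lost one in both, with 35.1% and 0% in DKO and 0% and 11.5% in SKO, against 84.9% and 72.8% in sgControl. The gained gene was TIMD4, a phosphatidylserine receptor, in DKO, and MARCO, another scavenger receptor, in SKO. TIMD4 had 52.6% and 63.7% in DKO and 0% in both SKO and both sgControl libraries, and MARCO had 73.7% and 89.3% in DKO and 90.9% and 88.9% in SKO, against 38.1% and 48.8% in sgControl. AXL, a receptor tyrosine kinase for apoptotic cell uptake, lost H3K27me3 in both, with 52.6% and 33.8% in DKO and 35.7% and 13.1% in SKO, against 80.8% in both sgControl libraries. Of the 19 genes, 10 had no H3K9me3 domain in any library, and the median difference was 0 in both knockouts. The single H3K9me3 calls are near the H3K9me3 shares of all genes given above (3.84% to 4.50%). H3K27me3 was lost by 3% of all genes in DKO and 3.15% in SKO, and nothing is read from the AXL calls.

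Of 16 myeloid transcription factor genes 0 gained and 1 lost H3K9me3 in DKO, and 2 gained and 1 lost it in SKO. For this list and the marker lists below, the H3K9me3 shares of all genes were 3.84% gained and 4.23% lost in DKO. In SKO they were 4.11% and 4.50%. The shares of all genes losing H3K27me3 were 3% in DKO and 3.15% in SKO. MITF, a regulator of lysosomal and osteoclast genes, was lost in both, with 19.6% and 23.6% in DKO and 17.3% and 28.3% in SKO, against 71.8% and 74.6% in sgControl. MITF also lost H3K27me3 in both, with 42.3% and 38.1% in DKO and 42.6% and 42.3% in SKO, against 85.4% and 86.7% in sgControl. RUNX1, a haematopoietic master regulator, and TFEC, a macrophage relative of MITF, were the genes gained in SKO. TFEC had 19.9% and 17.1% in DKO and 56.6% and 61.2% in SKO, against 10.3% and 15.3% in sgControl. RUNX1 had 27.5% and 19.9% in DKO and 32.1% and 27.2% in SKO, against 0% in both sgControl libraries. Of 16 monocytic lineage markers, CLEC12A, ANPEP and CD33 gained the mark in DKO and none was called in SKO, and 11 had 0% in all 6 libraries. The C-type lectin gene CLEC12A had 39.4% and 36.4% in DKO and 29.2% and 32.1% in SKO, against 7.29% and 0% in sgControl. The aminopeptidase gene ANPEP had 42.4% and 45.1% in DKO and 42.4% and 16.0% in SKO, against 0% in both sgControl libraries. CD33, a sialic acid-binding receptor, had 58.0% and 69.2% in DKO and 0% and 64.0% in SKO, against 0% in both sgControl libraries, so its SKO libraries stood apart from each other. For H3K27me3, the inhibitory receptor gene LILRB4 was lost in SKO alone, with 82.3% and 40.4% in DKO and 68.3% and 0% in SKO, against 100% in both sgControl libraries. Of 13 lymphoid and erythroid markers 1 gained H3K9me3 in DKO and 0 in SKO. The gained gene was CD2, a T cell adhesion receptor, with 48.5% and 94.8% in DKO and 0% and 48.6% in SKO, against 0% in both sgControl libraries. These markers describe chromatin and not the presence of a cell type.

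Among 27 further immune genes of chromosome X, 1 gained H3K9me3 in DKO and 3 in SKO, and none lost it. The shares gaining it in DKO and SKO were 3.84% and 4.11% of all genes, and 6.37% and 4.48% of X genes. TASL, an adaptor of endosomal Toll-like receptors, was called in both, with 46.4% and 56.9% in DKO and 54.9% and 56.9% in SKO, against 0% in both sgControl libraries. CD40LG, the ligand of CD40, had 42.4% and 0% in DKO and 55.5% and 42.4% in SKO, against 0% in both sgControl libraries, so it was called in SKO alone. CD99L2 had 15.1% in both DKO libraries and 26.0% and 29.0% in SKO, against 0% in both sgControl libraries. Over the full list of 30 genes, 17 had no H3K9me3 domain in any library. For H3K27me3, 2 of the 27 further genes gained in DKO and 2 in SKO, and nothing is read from these counts. The shares gaining H3K27me3 in DKO and SKO were 3.82% and 3.37% of all genes, and 11.7% and 10.4% of X genes. The 2 were the lysophosphatidylserine receptor gene GPR174 and the decoy receptor gene IL13RA2. Both had H3K27me3 over 100% of their bodies in all 4 knockout libraries, against 0% in both sgControl libraries. No list gave a test, since all were written with earlier results of these data known.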

How the data were processed

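Per the labels' protocols, chromatin was fixed, sonicated and mixed with Drosophila S2 chromatin (ChIP-Rx) before immunoprecipitation, and libraries were made with Nextera XT. Per the submitters' processing notes, tools included SICER, deepTools 3.5.6, FastQC 0.12.1 and Trim Galore 0.6.10, with builds dm6 and hg38. Neither the aligner nor the SETDB1 peak caller is stated in the sources read here. Of 18 samples, 14 had a file. The 4 inputs were not analysed here. Deposited histone mark lists hold epic2 domains per library, each with a read count and a score. Counts are not normalised, and the score was used only to rank domains within a library. Deposited SETDB1 lists hold peaks per library with a −log10 p-value. Domains were at least 800 bp wide and 4000 bp apart.

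Shares of gene bodies (RefSeq GRCh38.p14) and of 200 kb flanks were computed per library with Python 3.11.15, numpy 2.4.6 and pandas 2.3.3, and figures were drawn with matplotlib 3.10.9. Calls required non-overlapping libraries at least 25 points apart, and the rule was checked on simulated data. As an alternative, limma 3.58.1 in R 4.3.3 was run over genes covered in at least 1 library, at an adjusted p of 0.05. Other alternatives changed the gap, flank, gene boundary, domain list and libraries. Named genes were the 3 genes, genes touching their flanks, the 5 nearest in pattern, and called genes of 10 lists, at most 6 per list and mark; pathway genes without a call were named after their values were seen. The 3 genes and all lists were chosen with earlier results of these data known. In bulk ChIP-seq, a mark in part of the cells and a weaker mark in all of them cannot be told apart. Values of 1 listed gene are not reported here.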

Additional observations from a re-analysis of the deposited data

How the results depend on the processing

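All 3 genes were called gained for H3K9me3 in both knockouts under every alternative run, including limma with the replicate block (3 in DKO and 3 in SKO), except that the upper 50% of domains by score left 2 in DKO, without VSIG4. The genes were chosen on these same values and contrasts. Their calls under the alternatives, limma included, are thus a description and no test of the genes. Replicate numbers did not pair the libraries, since deviations of same-numbered libraries correlated at -0.0135 to 0.0501 in 2 pairs per comparison. Between DKO and SKO, 1 gene (CYSLTR1) was called gained with a gap of 10 points, where 25 points gave 0. The flank shares moved with the window and the domain list, and the main such shifts, with those of the VSIG4 share and the SETDB1 peak counts, stand beside their results; the cause was not tested. Counts over all genes, the background of the members, moved more. For H3K9me3 a gap of 10 points gave 1511 gained and 1404 lost in DKO, 1710 and 1397 in SKO, and 631 and 727 in DKO against SKO. A gap of 50 points gave 304 and 415, 302 and 456, and 104 and 74. For H3K27me3, gaps of 10 and 50 points gave 916 and 328 lost in DKO, 949 and 348 lost in SKO, and, in DKO against SKO, 309 and 72 gained and 168 and 29 lost. Lists trimmed to the same covered length gave 1163 gained and 500 lost for H3K9me3 in DKO and 1329 and 456 in SKO. Limma without a block gave 1243 gained in DKO and 1462 in SKO for H3K9me3. With the block, DKO against SKO gave 96 gained and 119 lost for H3K9me3 and 93 gained for H3K27me3. Leaving out 1 library gave, for DKO against SKO, 471 to 571 gained and 446 to 505 lost for H3K9me3 and 200 to 235 gained and 114 to 144 lost for H3K27me3. The deposited lists hold no reads outside domains, so depth limits what a share of 0 can show.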
